A study of Mus musculus with 6 samples.

Results

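Long intergenic noncoding RNAs (lincRNAs) expressed in splenic natural killer (NK) cells were followed in mice carrying Eumyc lymphoma and in healthy mice. A gene counted as an expressed lincRNA when the deposited table typed it lincRNA outside chromosomes X and Y, it was neither Gas5 nor an Snhg gene (hosts of small nucleolar RNAs), and it reached at least 1 CPM (counts per 1000000 counts of a library, unscaled) in at least 3 of the 6 libraries. That rule kept 253 genes of 4549 lincRNA entries in a table of 50686 genes. Of the 4549 entries, 1349 had a count in any library and 10 reached the minimum but were left out as X-linked, Y-linked, Gas5 or Snhg genes. The members were thus chosen by their level, and those that passed through 1 group alone had to differ between the groups.

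The Eumyc group (3 libraries) came from C57BL/6J mice given Eumyc lymphoma intravenously, whose spleens were taken on day 14. The WT group (3 libraries) came from healthy wild-type C57BL/6J mice. Eumyc lymphoma is a B lineage tumour driven by Myc under the immunoglobulin heavy chain enhancer. NK cells were depleted of B cells, enriched on CD49b beads and sorted for NK1.1 without TCR beta. The Eumyc sort alone also took cells that the beads had not bound, so the sort and the lymphoma cannot be told apart. The labels do not say whether the libraries came from separate animals, and p-values measure the spread between these libraries, which may be technical.

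A lincRNA is transcribed by RNA polymerase II from its own locus between coding genes, is often spliced, and is usually less abundant and more cell type restricted than a messenger RNA. Some act in the nucleus: Neat1 is the scaffold of paraspeckles, and Malat1 sits in nuclear speckles. Others are precursors from which Drosha and Dicer cut microRNAs, or are read mainly as transcription units beside a coding gene, as Pvt1 is beside Myc. NK cells depend on microRNAs for survival and cytokine release, and Ifngas1, a lincRNA beside Ifng, is known to promote Ifng transcription in T cells.

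The mature microRNAs lying inside members are shown because they name what those precursors carry. Their sequences are from RefSeq on GRCm38.p6, 5′ to 3′, and capitals mark the seed (bases 2 to 8), which pairs with target messenger RNAs. Mir142hg on chromosome 11 carries miR-142, abundant in blood cells. Mir17hg on chromosome 14 carries the miR-17 to miR-92 cluster, in which miR-17 and miR-20a share a seed, as do miR-19a and miR-19b. E130102H24Rik on chromosome 4 carries miR-101a, 6720427I07Rik on chromosome 13 carries let-7d, and Mir155hg on chromosome 16 carries miR-155.
mmu-miR-142a-5p: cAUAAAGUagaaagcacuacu
mmu-miR-142a-3p: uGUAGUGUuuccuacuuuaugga
mmu-miR-17-5p: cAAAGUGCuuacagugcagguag
mmu-miR-20a-5p: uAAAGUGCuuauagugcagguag
mmu-miR-18a-5p: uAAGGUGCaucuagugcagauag
mmu-miR-19a-3p: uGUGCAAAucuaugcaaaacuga
mmu-miR-19b-3p: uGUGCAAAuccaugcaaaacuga
mmu-miR-92a-3p: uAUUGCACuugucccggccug
mmu-miR-101a-3p: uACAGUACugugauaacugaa
mmu-let-7d-5p: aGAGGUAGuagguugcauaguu
mmu-miR-155-5p: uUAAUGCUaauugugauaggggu

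The libraries held 44456157 to 66615602 counts in Eumyc and 16407611 to 36534191 in WT. Markers of other cells differed between the groups. All 10 cell division genes rose, with summed levels of 1769 to 2478 CPM in Eumyc and 146 to 456 CPM in WT. Within WT, the library WT 3 stood nearest to Eumyc in these genes, a median of 1.40 log2 units above WT 1 and WT 2. Neutrophil markers summed to 64.4 to 87.9 CPM in Eumyc and 4.17 to 6.71 CPM in WT, with 8 of 8 tested higher and none of 9 at 0 in every library. B cell markers summed to 14.6 to 18.1 CPM in Eumyc and 4.69 to 5.75 CPM in WT, with 6 of 8 tested higher. Of 13 monocyte and macrophage markers (1537 to 2006 CPM in Eumyc, 1164 to 1228 CPM in WT), 7 rose, 1 fell and 5 did not pass. Most of that sum was Ccr2, with 1029, 1012 and 893 CPM in Eumyc and 785, 802 and 908 CPM in WT, while Lyz2 rose by 3.53 and Ly6c2 had -0.54 on the log2 scale. Of 8 dendritic cell markers (1218 to 1345 CPM in Eumyc, 745 to 837 CPM in WT), 5 rose and 3 did not pass, and nearly all of that sum was Itgax, with 1276, 1199 and 1169 CPM in Eumyc and 809, 715 and 783 CPM in WT. Erythroid markers (62.4 to 73.4 CPM in Eumyc, 14.6 to 33.6 CPM in WT) had 8 of 9 higher. T cell markers (546 to 590 CPM in Eumyc, 462 to 482 CPM in WT) had 4 of 11 higher, with Cd3g up by 2.12, and 1 lower. Of 4 megakaryocyte and platelet markers tested, 3 fell and 1 rose, at sums of 11.6 to 12.6 CPM in Eumyc and 14.3 to 22.5 CPM in WT. NK cell markers were abundant in both groups but lower in Eumyc, with sums of 10607 to 11939 CPM in Eumyc and 12004 to 12482 CPM in WT that did not overlap. Of 8, 5 fell, none rose and 3 did not pass, with a median log2 fold change of -0.34 and Klrd1 (CD94) at -0.70, Klrk1 (NKG2D) at -0.61 and Klrb1c (NK1.1, used in the sort) at -0.48. The part of these shifts in the lincRNA result was not tested, and fewer cells of a type cannot be told apart from less RNA per cell in these bulk libraries.

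Expressed lincRNAs as a class were lower in Eumyc NK cells. Each gene was tested with edgeR's quasi-likelihood test, and a gene was called where its p-value, adjusted by the Benjamini-Hochberg method over all 15458 genes tested, was under 0.05. All 253 lincRNAs were tested: 114 (45.1%) fell in Eumyc, 19 (7.51%) rose and 120 did not pass. Over all genes tested, 23.1% fell and 25.7% rose, 48.8% in either direction. Over the 12867 genes that reach the same CPM minimum, 26% fell and 28.1% rose, 54.1% in either direction. The median log2 fold change (Eumyc over WT) of the lincRNAs was -0.46, with quartiles of -0.87 and -0.04, beside -0.005 over all genes tested. In CPM, the 3 Eumyc libraries lay below all 3 WT libraries for 131 lincRNAs (51.8%), where 28.9% of all tested genes and 31.4% of those over the CPM minimum did so. They lay above for 24 lincRNAs (9.49%), where 31.3% of all tested genes and 33.7% of those over the CPM minimum did so.

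**Figure D1:**
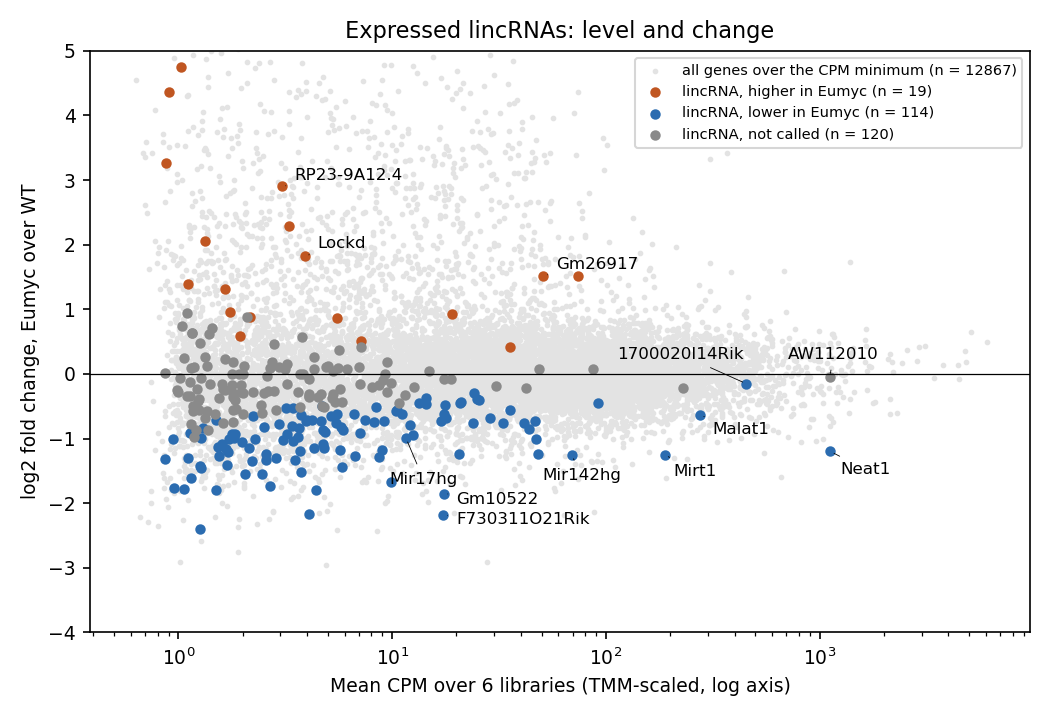
Log2 fold change (Eumyc over WT) against mean CPM (log axis) for the 253 expressed lincRNAs and, in light grey, all 12867 genes over the same CPM minimum. Coloured points are lincRNAs that rose (19) or fell (114) in Eumyc, dark grey points the 120 that did not pass, and genes beyond the axis, among them 1 lincRNA with no WT count, are not drawn.

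The members' summed level was 4553, 4461 and 4432 CPM in the Eumyc libraries, against 6301, 6552 and 5935 CPM in the WT libraries. That was 0.444%, 0.441% and 0.442% of all counts in Eumyc and 0.634%, 0.663% and 0.604% in WT. The groups did not overlap, with means of 4482 ± 63.4 CPM in Eumyc and 6263 ± 310 CPM in WT (SD, n = 3 each). Neat1, AW112010, 1700020I14Rik, Malat1 and AU020206 together made 56.6% to 61.5% of the sum in every library. Without these 5, the sum was 1755 to 1938 CPM in Eumyc and 2346 to 2655 CPM in WT. The lower sum was therefore also present outside the most abundant members.

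The choice by level left most members well measured in both groups. At least 1 CPM was reached in all 6 libraries by 184 lincRNAs, of which 90 fell and 10 rose. Of 13 that reached it only in the 3 WT libraries, 12 fell, and of 8 that reached it only in the 3 Eumyc libraries, 6 rose, as the choice itself favours. Just inside the minimum, the third-highest library stood at 1.02 CPM for A430110L20Rik, 1.03 for 1110006O24Rik and 1.04 for Gm26681. Just outside it stood at 0.995 for 1110020A21Rik, 0.99 for 2410018L13Rik and 0.975 for Gm13842. At 1 CPM a gene has 16.4 counts in the smallest library, WT 3, and 66.6 in the largest, Eumyc 3, so counting error weighs most on the 116 members with a mean under 3 CPM.

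Among the bands of levels listed here, the share of lincRNAs that fell was smallest at a mean of 1 to 3 CPM, as a description with no test. It was 31.5% of 108 members with a mean of 1 to 3 CPM, 48.2% of 85 at 3 to 10 CPM, 76.7% of 30 at 10 to 30 CPM and 59.1% of 22 at 30 CPM or more, the remaining members having a mean under 1 CPM. For protein-coding genes in the same bands it was 19.1%, 24.8%, 23.6% and 28.6%. By structure, 15 of 35 lincRNAs with 1 exon fell and none rose, 36 of 76 with 2 exons fell and 4 rose, and 60 of 138 with 3 or more exons fell and 15 rose. Chromosome 5 held the most members, 32, of which 20 fell, and on chromosome 19 11 of 14 fell. Beside these counts by structure and chromosome, 45.1% of all 253 members fell and 7.51% rose. Differences between exon numbers or chromosomes were not tested, and shares over all genes of these chromosomes are not given here. Members that overlap each other, as Mirt1 and 4833407H14Rik on chromosome 19 do, each count in these numbers.

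Other noncoding classes over the same CPM minimum also had more falls than rises. Of 230 antisense RNAs, 41.7% fell and 4.78% rose, with a median log2 fold change of -0.50. Of 171 genes typed TEC (transcripts awaiting experimental proof), 33.9% fell and 2.34% rose, and of 147 processed transcripts 39.5% fell and 7.48% rose. Of 11184 protein-coding genes, 26.1% fell and 29.7% rose, with a median of 0.01. Processed pseudogenes went the other way: 3.81% of 604 fell and 30.8% rose. A pattern shared with antisense RNAs and TEC genes is not particular to lincRNAs.

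**Figure D2:**
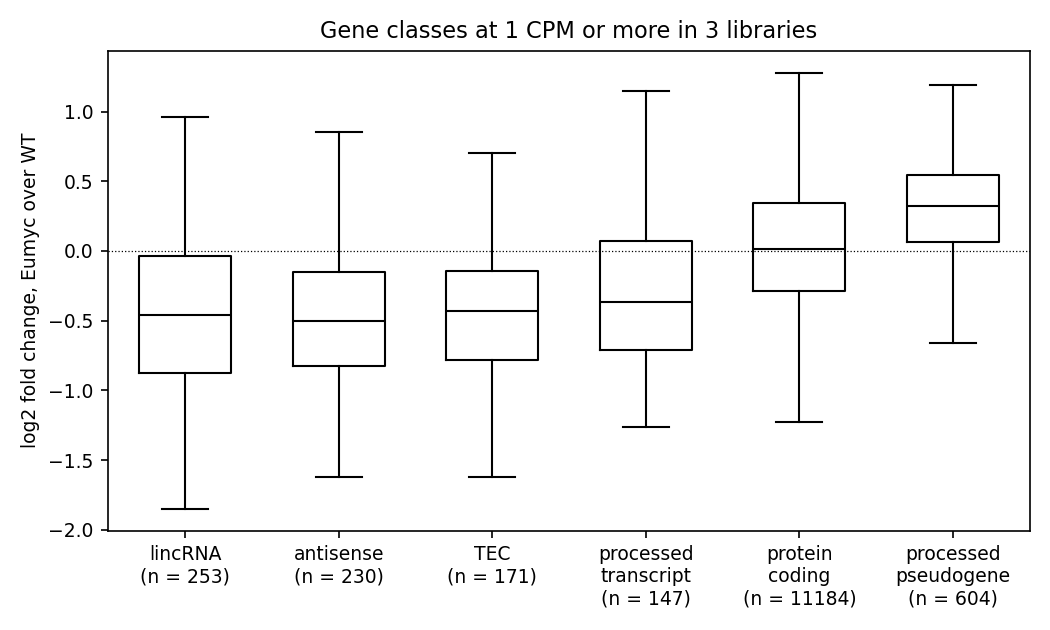
Log2 fold change (Eumyc over WT) by gene class among genes at 1 CPM or more in at least 3 libraries. Boxes span the quartiles with the median as a line, whiskers reach the last value within 1.5 box lengths, and values beyond are not drawn. The lincRNA median is -0.46, the antisense median -0.50 and the protein-coding median 0.01.

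In WT 3, the WT library with the most cell division RNA, 157 of all 253 lincRNAs lay below the mean of WT 1 and WT 2, with a median difference of -0.09 on the log2 scale. Among the 114 lincRNAs that fell, 89 lay below it, with a median of -0.17, and among the 120 that did not pass 61 did, with a median of -0.01. Over all genes above the CPM minimum, 6428 of 12867 lay below, with a median of 0.00. Without WT 3, again 114 lincRNAs fell and 21 rose. WT 3 was also the smallest library, with 16407611 counts. In Eumyc 1, the cell division genes had a median difference of -0.27 from the mean of Eumyc 2 and Eumyc 3. The lincRNAs had a median difference of -0.03 there. Among the 114 that fell it was -0.02, with 61 below and 53 above. What lies behind the difference in WT 3 was not tested.

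Neat1 and Malat1, the nuclear body RNAs, both fell. Neat1 (chr19:5824708-5845478, minus strand) had 783, 630 and 631 CPM in Eumyc libraries, against 1571, 1678 and 1443 CPM in WT libraries. Its highest Eumyc library stayed far below its lowest WT library, and the log2 fold change was -1.20 ± 0.10 (SE, adjusted p = 0.000182). Malat1 (chr19:5795690-5802672, minus strand), its neighbour on the same strand, had 223, 199 and 225 CPM in Eumyc and 284, 428 and 293 CPM in WT. The groups did not overlap, although WT 2 stood apart above, and the log2 fold change was -0.64 ± 0.15 (adjusted p = 0.00824). Without WT 2 it was -0.41 (adjusted p = 0.00746).

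Of 15 paraspeckle protein genes tested, 6 rose, 1 fell and 8 did not pass, with a median log2 fold change of 0.13. That is 7 of 15 called, near the 48.8% called over all genes tested. The protein partner Nono rose by 0.41, the chromatin remodeller Smarca4 by 0.35 and Rbm14 by 0.30 on the log2 scale, and the splicing factor Hnrnph3 had a log2 fold change of -0.67. Genes of nuclear RNA decay, the exosome and its adaptors, showed 6 higher, 2 lower and 10 not passing of 18 tested, also near that share. The exosome nuclease Dis3 rose by 0.64 and the core subunit Exosc9 by 0.50, while the poly(A) binding protein Pabpn1 had -0.73 and Zfc3h1, of the adaptor complex that hands polyadenylated nuclear RNA to the exosome, -0.49. The decay count was 5 in place of 8 without Eumyc 3.

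Mirt1, first described as a transcript induced in infarcted mouse heart, also fell. It lies at chr19:53441212-53464796 (minus strand) and had 101, 132 and 101 CPM in Eumyc, against 275, 290 and 231 CPM in WT. The groups were far apart, and the log2 fold change was -1.25 ± 0.12 (adjusted p = 0.000257). The overlapping member 4833407H14Rik, a synonym of Mirt1 in RefSeq, had a log2 fold change of -0.86 ± 0.14. In all, 17 members overlap another member, 13 of them lower, and such members are not independent.

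Of 9 lincRNAs that hold a microRNA hairpin, 6 fell, none rose and 3 did not pass. Among all 253 lincRNAs, 45.1% fell and 7.51% rose, and whether hosts differ from the class was not tested. Mir142hg (chr11:87755577-87757270, plus strand) had 51.7, 37.0 and 34.0 CPM in Eumyc, against 89.0, 124 and 79.0 CPM in WT, a log2 fold change of -1.26 ± 0.20 (adjusted p = 0.00139). Mir17hg (chr14:115042879-115046727, plus strand) had 7.13, 7.05 and 9.06 CPM in Eumyc, against 14.2, 15.6 and 16.7 CPM in WT, a log2 fold change of -0.99 ± 0.14 (adjusted p = 0.000778). Both precursors were separated between the groups in every library, and Mir17hg, a known direct target of Myc, was lower while Myc messenger RNA was higher.

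E130102H24Rik, the miR-101a host, had 1.82, 1.96 and 2.03 CPM in Eumyc, against 5.70, 6.09 and 4.91 CPM in WT, with a log2 fold change of -1.52 ± 0.17 (adjusted p = 0.000373). The let-7d host 6720427I07Rik had 1.43, 1.47 and 1.66 CPM in Eumyc, against 2.63, 3.81 and 4.43 CPM in WT, with a log2 fold change of -1.24 ± 0.24 (adjusted p = 0.00346). These hosts are of low level but do not overlap between groups. The hosts of miR-5103 (Gm37233, -0.71 ± 0.22, adjusted p = 0.0258) and of miR-1839 (2900076A07Rik, -0.57 ± 0.17, adjusted p = 0.0217) also passed. Their calls were lost without Eumyc 3 (adjusted p = 0.083 for Gm37233 and 0.0823 for 2900076A07Rik) and without WT 1 or WT 2, and that of 2900076A07Rik also without Eumyc 1 (adjusted p = 0.0514).

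Mir155hg, whose microRNA is induced on NK cell activation, had 3.62, 3.43 and 2.63 CPM in Eumyc and 2.45, 3.41 and 3.29 CPM in WT. The groups overlapped, with a log2 fold change of 0.08 ± 0.21 (adjusted p = 0.777). The hosts 6030443J06Rik and Gm26551 did not pass either. Each spans other counted genes, and Gm26551 covers part of Tcf7 on the same strand.

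Host reads do not measure the mature microRNA. The 14 hairpin entries inside these hosts had 0 counts in all 6 libraries. Among 14 genes of the microRNA pathway, 3 rose, 6 fell and 5 did not pass, where 25.7% of all genes tested rose and 23.1% fell. Ran, which powers precursor export, rose by 1.03, the Drosha partner Dgcr8 by 0.28 and the exporter Xpo5 by 0.24 on the log2 scale. The silencing scaffolds Tnrc6b and Tnrc6a had log2 fold changes of -0.54 and -0.37, and the Argonaute gene Ago3 had -0.52. Without WT 1, 5 of the 14 passed in place of 9.

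**Figure D3:**
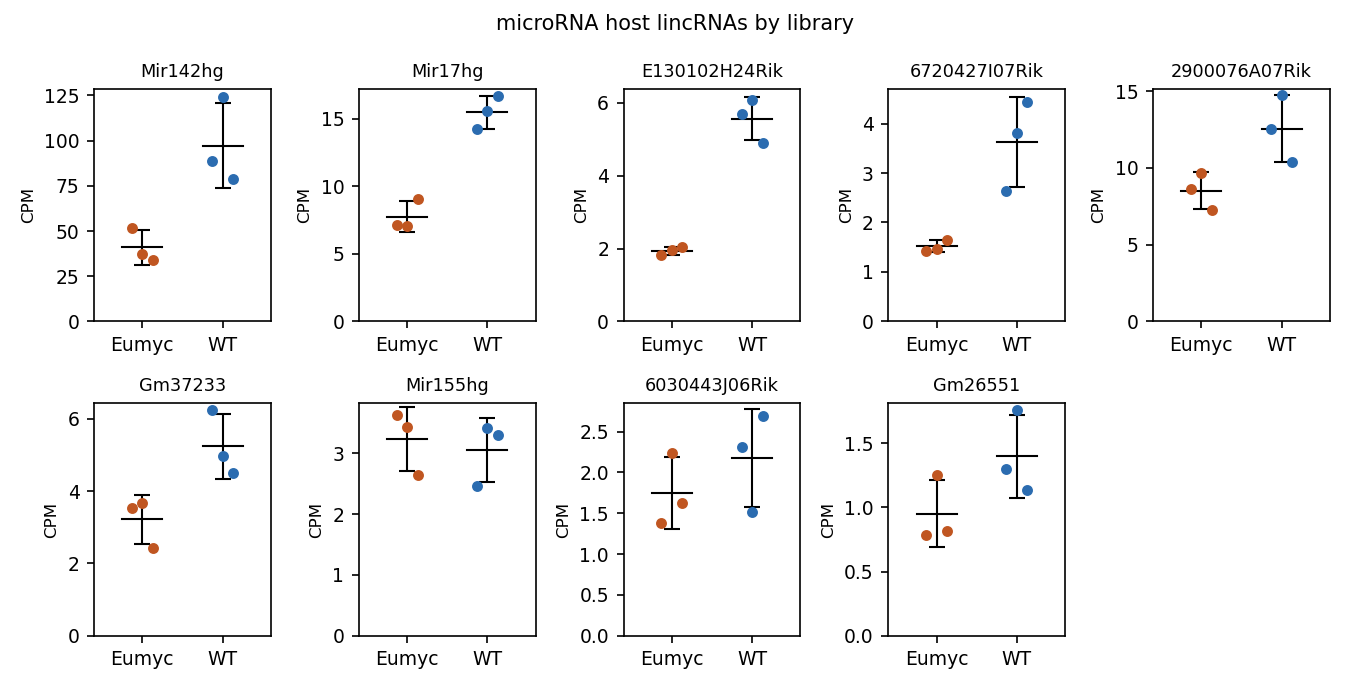
CPM of the 9 lincRNAs that hold a microRNA hairpin, 1 point a library, Eumyc left and WT right, with group means and SD bars (n = 3 each), each panel on its own scale from 0. Mir142hg, Mir17hg, E130102H24Rik and 6720427I07Rik are lower in each Eumyc library than in any WT library, and Mir155hg overlaps.

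The 10 largest falls among called lincRNAs with at least 2 CPM in WT and no overlap between groups were mostly genes with no described function. F730311O21Rik (chr1:132342023-132349626, plus strand) had 7.04, 7.42 and 4.44 CPM in Eumyc, against 24.6, 40.0 and 20.8 CPM in WT, with a log2 fold change of -2.19 ± 0.28 (adjusted p = 0.000575). Gm10522 (chr1:170981944-170986466, plus strand) had 6.79, 8.51 and 7.40 CPM in Eumyc, against 32.4, 27.6 and 21.7 CPM in WT, with a log2 fold change of -1.85 ± 0.16 (adjusted p = 0.000186). Each Eumyc library lay below every WT library for both. Gm10522 is divergent from Fcgr2b, the inhibitory IgG receptor, 5.4 kb away, which had a log2 fold change of -0.95.

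RP23-141H24.4 reached 1 CPM in the 3 WT libraries alone, so its place among the members favoured a difference. It had the lowest log2 fold change, -2.40, with 0.439, 0.526 and 0.271 CPM in Eumyc, against 2.92, 2.43 and 1.02 CPM in WT. Its 3 WT libraries spread widely. 4930471E19Rik, under its RefSeq symbol, had 1.64, 1.62 and 1.22 CPM in Eumyc, against 6.85, 7.57 and 5.57 CPM in WT (-2.17 ± 0.20, adjusted p = 0.000223). RP23-272A7.3 lies 41.2 kb from Eomes, the transcription factor that defines conventional NK cells, on the same strand. It too reached 1 CPM in the 3 WT libraries alone, with 0.669, 0.681 and 0.662 CPM in Eumyc, against 2.27, 2.22 and 2.52 CPM in WT, and a log2 fold change of -1.79. Eomes itself had a log2 fold change of -0.39.

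Gm45353, Gm17552, RP23-186D15.7, 4933413J09Rik and Gm28151 completed the 10 largest falls, with log2 fold changes of -1.79, -1.68, -1.74, -1.55 and -1.55. Gm17552, typed antisense in GENCODE M21, overlaps the carnosine synthase gene Carns1 on the opposite strand, which had -1.73. Gm28151 lies inside the zinc transporter gene Slc39a10 on the same strand, which rose by 0.37. Whether counting used the strand is not given in the sources used here; reads of overlapping genes cannot be told apart.

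Of the 19 lincRNAs that rose, 12 had a log2 fold change over 1. Lockd, the transcript downstream of the cell cycle inhibitor gene Cdkn1b, was among them. Lockd (chr6:134929092-134956798, plus strand) had 5.59, 5.24 and 7.43 CPM in Eumyc, against 1.95, 1.6 and 1.62 CPM in WT, with a log2 fold change of 1.82 ± 0.21 (adjusted p = 0.000387). Cdkn1b, 3.58 kb upstream on the same strand, had a log2 fold change of -0.91 ± 0.10 (adjusted p = 0.000322). The neighbours thus moved in opposite directions.

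RP23-9A12.4, listed as Gm5122 in RefSeq, had 6.55, 4.50 and 5.09 CPM in Eumyc, against 1.05, 0.622 and 0.419 CPM in WT (2.90 ± 0.31, adjusted p = 0.000324). Gm19705 had 4.94, 4.8 and 6.61 CPM in Eumyc, against 1.33, 0.811 and 1.26 CPM in WT (2.29 ± 0.25, adjusted p = 0.000354). Neither has a role given in the files, and both were clear of WT in every Eumyc library. 5430437J10Rik, a member through the 3 Eumyc libraries alone, had 209, 157 and 176 counts in Eumyc and 0 in each WT library. Against a limit of 3 counts over the WT group (0.0373 CPM), its Eumyc mean of 3.30 CPM was at least 88.5-fold higher. GENCODE M21 types it as a transcribed processed pseudogene.

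Among the 10 largest rises with at least 2 CPM in Eumyc and no overlap between groups, Gm26917 had the highest level, with 62.8, 89.2 and 74.6 CPM in Eumyc, against 21.2, 21.5 and 37.1 CPM in WT (1.52 ± 0.22, adjusted p = 0.000994). It ends 13 bases before Rn18s-rs5, an 18S ribosomal RNA-related sequence on chromosome 17 in RefSeq, and the part of ribosomal RNA reads in its count was not tested. A930024N18Rik overlaps the Notch ligand gene Dll1 on the opposite strand and reached 1 CPM in the 3 Eumyc libraries alone. It had a log2 fold change of 2.05, and Dll1 rose by 2.79. 9530082P21Rik, opposite to the Wnt coreceptor gene Kremen2, rose by 0.93 and Kremen2 by 2.27. 1700048O20Rik rose by 1.32, 6330403K07Rik by 0.96 and 4930428O21Rik by 0.88, and 6330403K07Rik is typed protein coding in GENCODE M21.

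**Figure D4:**
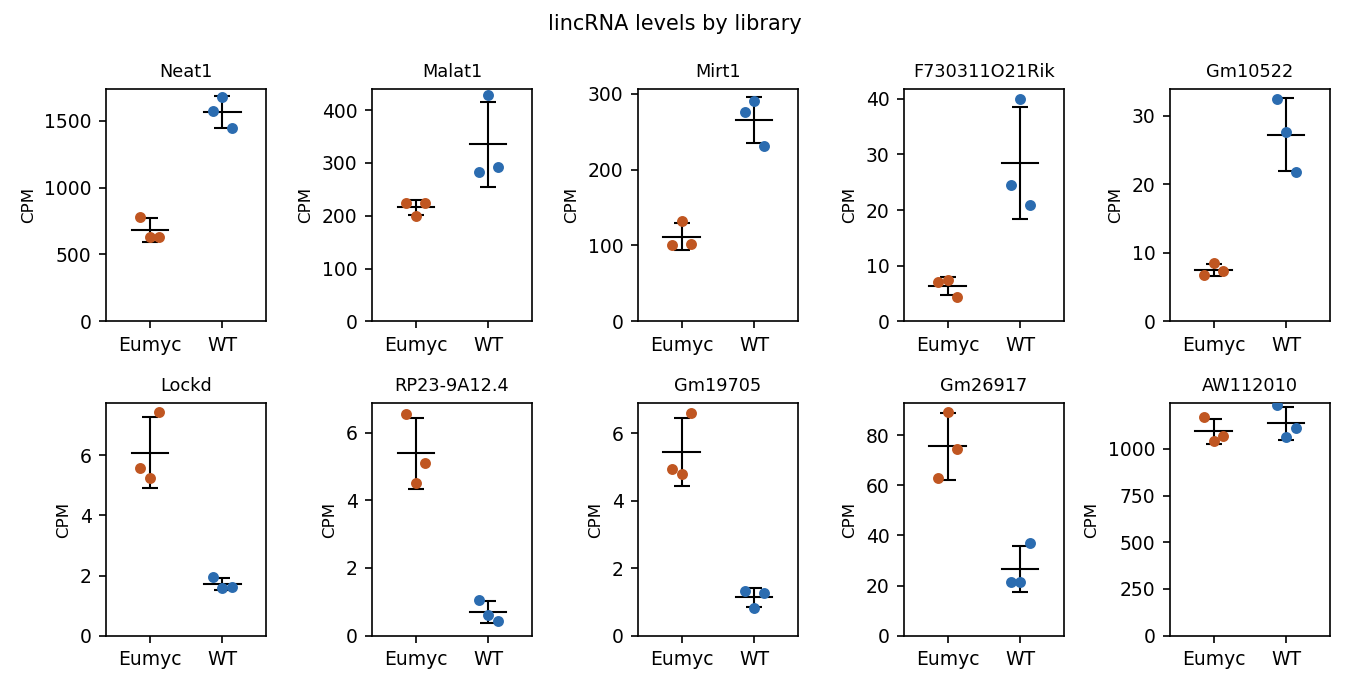
CPM of 10 lincRNAs, 1 point a library, Eumyc left and WT right, with group means and SD bars (n = 3 each), each panel on its own scale from 0. The first 5 panels show falls, the next 4 rises, and AW112010 overlaps between the groups.

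Promoters of 3 members with matching RefSeq start sites are shown as the loci behind these calls: Mirt1 and Malat1, which fell, and Lockd, which rose. Each is 300 bases on GRCm38.p6, from 250 before to 50 after the start, 5′ to 3′ on the gene's strand. Capitals mark TGANTCA, a motif of AP-1 factors.
Mirt1, chr19:53464747-53465046, minus strand: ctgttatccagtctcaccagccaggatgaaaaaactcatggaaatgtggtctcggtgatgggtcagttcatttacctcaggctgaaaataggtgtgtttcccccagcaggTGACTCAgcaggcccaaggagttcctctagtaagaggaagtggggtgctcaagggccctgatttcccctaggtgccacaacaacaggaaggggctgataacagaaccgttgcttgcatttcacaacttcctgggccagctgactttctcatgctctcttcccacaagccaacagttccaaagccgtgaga
Malat1, chr19:5802623-5802922, minus strand: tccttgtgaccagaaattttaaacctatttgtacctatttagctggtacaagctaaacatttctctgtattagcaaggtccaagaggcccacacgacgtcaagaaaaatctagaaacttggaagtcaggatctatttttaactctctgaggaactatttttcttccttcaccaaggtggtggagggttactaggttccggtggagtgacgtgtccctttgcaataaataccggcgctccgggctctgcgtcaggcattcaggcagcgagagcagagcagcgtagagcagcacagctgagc
Lockd, chr6:134928842-134929141, plus strand: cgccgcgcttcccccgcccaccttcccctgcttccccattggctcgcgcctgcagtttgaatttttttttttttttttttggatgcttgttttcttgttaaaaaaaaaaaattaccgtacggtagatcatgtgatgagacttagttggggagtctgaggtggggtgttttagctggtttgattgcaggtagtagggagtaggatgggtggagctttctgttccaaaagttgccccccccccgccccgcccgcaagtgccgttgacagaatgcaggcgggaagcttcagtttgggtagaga

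Of these 3 promoters, Mirt1 alone holds TGANTCA. Motifs were searched on both strands in the 133 members with a promoter entry. CACGTG, the E-box read by Myc, was in 6.77% of them and in 7.09% of all 27025 promoters in the table. TGANTCA was in 8.27% of members and 7.91% of all promoters, and TGACGTCA, the cyclic AMP response element, in 3.01% of members and 1.78% of all promoters. A match describes the letters only. Some promoter entries lie at the member's annotated start, as for Mirt1, Malat1 and Lockd. Others lie far from it, by 63096 bases for 4930471E19Rik, 12627 for Gm19705 and 9856 for Mir155hg. The shares therefore describe these entries and not promoters at the annotated starts alone.

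Among lincRNAs with described immune or growth roles, Pvt1 fell. It had 5.47, 6.42 and 6.50 CPM in Eumyc, against 9.24, 10.8 and 10.7 CPM in WT (-0.74 ± 0.13, adjusted p = 0.00255). Myc, 47.6 kb upstream on the same strand, had 121, 116 and 95.4 CPM in Eumyc, against 58.3, 61.6 and 77.9 CPM in WT, and rose by 0.75 ± 0.12 on the log2 scale (adjusted p = 0.00176). The pair moved in opposite directions, with no overlap between groups for either gene.

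Tmevpg1, listed as Ifngas1 in RefSeq, had 7.71, 7.33 and 9.57 CPM in Eumyc and 5.38, 7.60 and 5.39 CPM in WT. Its groups overlapped, with a log2 fold change of 0.41 ± 0.18 (adjusted p = 0.0942), but 0.62 (adjusted p = 0.0316) without WT 2 and 0.49 (adjusted p = 0.0449) with all libraries thinned to equal depth. Ifng, the interferon gamma gene, did not pass (-0.33, adjusted p = 0.126). Miat, an RNA of nuclear bodies in neurons, had 1.75, 1.1 and 1.05 CPM in Eumyc and 0.902, 0.703 and 0.719 CPM in WT (0.73 ± 0.32, adjusted p = 0.0886), so it did not pass. It reached 1 CPM in Eumyc alone. RP23-353K11.3, listed as Gm33104 in RefSeq and 84.6 kb from the interferon gamma receptor gene Ifngr1, had 28.3, 34.8 and 30.3 CPM in Eumyc, against 63.6, 67.6 and 57.0 CPM in WT (-1.01 ± 0.10, adjusted p = 0.000248). It was one of the 8 members with the most reads per kilobase of exon, and Ifngr1 had a log2 fold change of -0.36.

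Not every abundant lincRNA moved. AW112010, a transcript induced in inflammation in mouse macrophages, had the highest level per kilobase of exon and had 1171, 1041 and 1072 CPM in Eumyc and 1234, 1067 and 1111 CPM in WT. Its groups overlapped, with a log2 fold change of -0.06 ± 0.08 (adjusted p = 0.589). Gm19585 (0.08 ± 0.06, adjusted p = 0.305) and AU020206 (-0.21 ± 0.11, adjusted p = 0.159) did not pass either, although AU020206 did with the replicate number as a block (adjusted p = 0.00631). 1700020I14Rik, known as Cyrano and conserved between fish and mammals, had 436, 440 and 416 CPM in Eumyc and 489, 486 and 461 CPM in WT. Its call was marginal (-0.15 ± 0.06, adjusted p = 0.0493).

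The nearest tested protein-coding gene of each lincRNA moved only loosely with it. Of the neighbours of the 114 lincRNAs that fell, 44 fell, 26 rose and 44 did not pass, where 26.1% of protein-coding genes over the CPM minimum fell and 29.7% rose. Neighbours could also lie under that minimum, as Lrrc49 and Pomgnt2 did, so these shares are from a set that is not fully alike. Of the neighbours of the 19 that rose, 9 rose, 4 fell and 6 did not pass. Across the 253 pairs, which share libraries and depth, Pearson's r of the log2 fold changes was 0.18 and Spearman's rho 0.18, as a description over genes that are not independent. For the 60 pairs that overlap in span, r was 0.62 and rho 0.42, for 94 within 5 kb 0.27 and 0.22, for 69 at 5 to 50 kb 0.04 and 0.08, and for 30 farther away 0.05 and 0.01. Among the overlapping pairs, the 50 on opposite strands had an r of 0.67 and a rho of 0.47, and the 9 on the same strand an r of -0.28 and a rho of 0.10. The part of shared reads in these values was not tested.

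**Figure D5:**
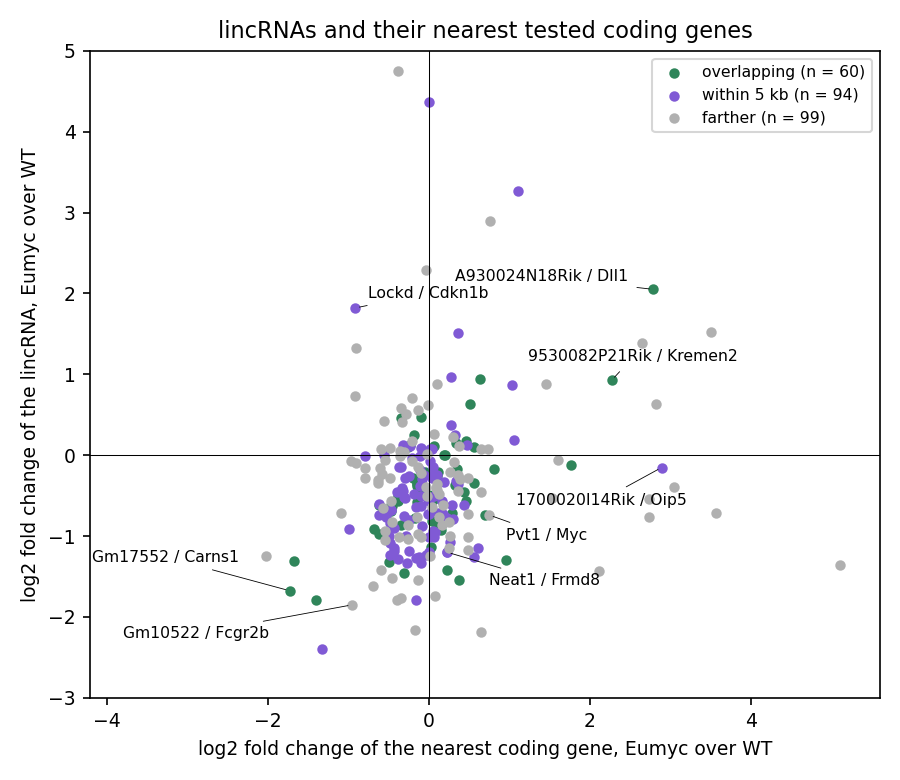
Log2 fold change (Eumyc over WT) of each lincRNA (vertical) against that of its nearest tested protein-coding gene (horizontal), coloured by distance, with named pairs marked. Overlapping pairs (n = 60) have an r of 0.62, Lockd and Cdkn1b sit in the upper left and Pvt1 and Myc in the lower right, and 1 lincRNA with no WT count lies above the axis.

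The annotation of the members is uneven. By Ensembl identifier, 249 matched GENCODE M21, which types 218 as lincRNA, 17 as antisense and 14 otherwise. The span of 110 overlaps another counted gene and that of 61 a protein-coding one. Among the 143 that overlap no other counted gene, 61 fell and 14 rose, with a median log2 fold change of -0.40. Among the 218 still typed lincRNA, 103 fell and 16 rose, with a median of -0.49. The direction was thus the same in both subsets, which were chosen after seeing the data.

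The authors' deposited table of their own comparison lists 74 of the 253 members. Its name carries limits of level and significance, so the listed members may be a selected set and not the authors' result for all 253. In it, 45 were lower and 6 higher at an adjusted p-value under 0.05, and the sign was the same as here for 74 of 74. Both comparisons rest on the same libraries, so the match of sign is not independent evidence. The shares lower and higher over all genes of the authors' comparison are not given here. Neat1 had a log2 fold change of -1.19 in the authors' deposited table, Mirt1 -1.22, Mir142hg -1.18, Malat1 -0.62, F730311O21Rik -1.94 and Lockd 1.6.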

How the data were processed

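RNA of sorted splenic NK cells was sequenced from TruSeq libraries in 3 Eumyc and 3 WT samples. The authors deposited whole-number counts per gene and a table of their own comparison, with log2 fold changes and p-values. The tools were STAR 2.5.2, HTSeq 0.6.1, and DESeq2 1.10.1, on the mouse build mm10 (GRCm38), per the submitters' processing notes. For annotation release, strand and read filters, the settings were not given in the sources used here.

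Library totals were 44456157, 65353739 and 66615602 counts in Eumyc and 27535702, 36534191 and 16407611 in WT. Every pair of libraries within a group differed beyond sampling noise (chi-square over its degrees of freedom at least 8.51). The test was edgeR's (version 4.0.16, R 4.3.3) on counts, with filterByExpr at a minimum count of 10, TMM scaling and the group as the only term, two-sided. Standard errors were taken from the test statistic, and CPM values are TMM-scaled. The fit was also run on simulated data with 200 changed genes. In the real data 7549 of 15458 genes were called, so the simulation does not measure the error rates of these calls. Limits from a count of 0 cover counting error only.

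Members and gene lists were chosen with earlier results of these data known. Named members were the 10 largest rises and 10 largest falls of called members whose groups did not overlap and whose higher mean was at least 2 CPM, the 8 with the most reads per kilobase of exon, all in the role lists and all microRNA hosts, with their nearest coding genes. 4833407H14Rik was named after its values were seen. Neighbours came from the gene coordinates deposited with the counts, strands and exon lengths from GENCODE M21 (GRCm38), and sequences from RefSeq. Alternatives were DESeq2 1.42.0, limma voom (limma 3.58.1), other scalings and filters, equal depth, leaving out each library, and the replicate number as a block.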

Additional observations from a re-analysis of the deposited data

How the results depend on the processing

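Under 8 other settings (DESeq2, limma voom, DESeq2 size factors, total counts, no filter, 1 CPM in 3 libraries, equal depth and the replicate block), 103 to 121 lincRNAs fell and 18 to 21 rose. Leaving out 1 library at a time gave 87 to 114 falls, 16 to 21 rises and medians of -0.49 to -0.41. Among members at 1 CPM or more in all 6 libraries, 10 of 184 rose, and among members overlapping no other counted gene, 61 of 143 fell; fewer members enter both counts. Leaving out 1 library gave 5 to 9 microRNA pathway genes, 5 to 8 nuclear RNA decay genes, 5 to 9 paraspeckle protein genes and 4 to 6 microRNA hosts called. Of 40 named members, 35 kept the same call in every setting run. AW112010 (0.02, adjusted p = 0.868) and Mir155hg (-0.05, adjusted p = 0.879) changed sign without WT replicate 1, neither of them called; without 1 library they ranged over -0.09 to 0.02 and -0.05 to 0.22. 1700020I14Rik lost its call in 8 settings (adjusted p = 0.0513 to 0.163), and the cause was not tested.

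The labels do not say whether replicate numbers pair the samples. Same-numbered libraries deviated together with correlations of 0.0404, 0.0985 and 0.126, and differently numbered ones with -0.119 to 0.0349. With the replicate block, 114 lincRNAs fell and 20 rose, with a median of -0.45, and AU020206 passed (adjusted p = 0.00631). Each library correlated best with its own number, but 0.0404 for number 1 lay close to 0.0349 for Eumyc 2 with WT 1. Eumyc 3 and WT 3, at 0.126, also had the most RNA of the cell division gene Mki67 in their groups (803 and 136 CPM). Deviations from a group mean depend on each other, so these values do not show whether the samples are paired.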

Other observations

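Long noncoding RNAs that the deposited table types otherwise, taken from the lists of growth, immune and imprinted RNAs, also moved in both directions. Tug1, a widely expressed RNA with nuclear roles, had 143, 153 and 144 CPM in Eumyc, against 227, 252 and 210 CPM in WT (log2 fold change -0.65 ± 0.07, edgeR adjusted p = 0.000383). The imprinted Peg13 had 43.3, 57.8 and 44.5 CPM in Eumyc, against 129, 142 and 101 CPM in WT (-1.36 ± 0.15, edgeR adjusted p = 0.000331). Both lay below WT in every Eumyc library. Airn, the imprinted antisense RNA of Igf2r, had -0.49 ± 0.13 (edgeR adjusted p = 0.012), and Dleu2, the host of miR-15a and miR-16-1, rose by 0.31 ± 0.10 on the log2 scale (edgeR adjusted p = 0.033). Gm14005, known as Morrbid and described as a regulator of Bcl2l11 in mouse myeloid cells, did not pass (0.29 ± 0.19, edgeR adjusted p = 0.238). Of the tested genes in these lists, lincRNAs included, 3 of 6 growth and DNA damage RNAs fell and 1 rose, 2 of 7 immune RNAs fell and 1 rose, and 2 of 5 imprinted RNAs fell and none rose, where 23.1% of all genes tested fell and 25.7% rose. Among the growth and DNA damage falls, Lncpint had means of only 0.215 CPM in Eumyc and 0.875 CPM in WT (-2.11 ± 0.58, edgeR adjusted p = 0.0169). The immune RNA that rose was BC035044 (0.37 ± 0.10, edgeR adjusted p = 0.0168).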
